A study of Gallus gallus with 15 samples.

Results

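The comparison described here is between hypothalami of chicks incubated under green monochromatic light for the whole incubation (Green) and of chicks incubated in the dark (Control). It holds 7 of the 15 libraries of the series, 3 Green (replicates 2, 7 and 9) and 4 Control (replicates 4, 5, 6 and 8), chosen by the treatment in their labels and not by any measured value. The other libraries are 4 from chicks under white light (White) and 4 from chicks lit green for no more than the final 3 days before hatch (G3D). All are from broiler chickens of a commercial strain, taken on the day of hatch (DOH), and the labels call the Control, Green and White chicks male and give no sex for G3D. The paper's legend for these profiles calls the chicks male. RNA came from the hypothalamic hemisphere of single chicks, lysed whole, so the values mix neurons, glia and vessels, and fewer cells of a type cannot be told apart from less RNA per cell. The egg trays of each light regime stood apart behind dividers, so the place in the incubator and the light cannot be told apart.

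The hypothalamus sets growth, feeding and temperature through small sets of neurons that release peptides. Releasing and inhibiting hormones such as somatostatin act on the pituitary, and in birds vasoactive intestinal peptide (VIP) drives prolactin release. Other peptides, among them galanin and agouti-related peptide, act within the hypothalamus on feeding. Birds sense light with the retina and also with photoreceptors deep in the brain.

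Expression was measured by bulk MARS-Seq, which counts reads near the 3′ ends of transcripts, and the deposited counts are given below as CPM, the counts brought to a common library total after scaling by edgeR's trimmed mean of M-values. Total counts lay between 6066732 and 9501555 in Control and between 5898618 and 8205918 in Green, and each library had a count for 12819 to 13913 genes. The root mean square difference of log2 CPM was 0.67 to 0.76 between Control pairs, 0.66 to 0.72 between Green pairs and 0.64 to 0.82 between a Control and a Green library, with medians of 0.68, 0.70 and 0.72. Of 10475 genes tested, 568 (5.42%) could be given a symbol, and each of these is a gene that the study listed as changed in some comparison of these same libraries, so shares among them are read against the 568 and not against all genes. Of the neuron markers, STMN2, SNAP25, GAP43, GAD2 and GAD67 were matched, with a summed level of 3387 to 4103 CPM in Control and 3952 to 4489 CPM in Green. The sum does not speak for each member, since the log2 fold change of Green against Control was above 0 for 2 and below 0 for 3. Their median was -0.19. SIX3 was the only hypothalamus marker matched, and markers of microglia, endothelium, erythrocytes, pituitary and retina were not analysed here.

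No gene differed between Green and Control at an adjusted p under 0.05 in edgeR's quasi-likelihood test (0% of genes called higher and 0% lower), and the smallest adjusted p was 0.202. Without adjustment, 375 genes (3.58%) had an edgeR p under 0.05 with a higher Green level and 375 (3.58%) with a lower one. limma-voom also called 0 genes at an adjusted p under 0.05, while DESeq2 on the same counts called 14 higher (0.158%) and 9 lower (0.102%), of which 10 and 4 have a symbol. The DESeq2 shares are of the 8846 genes to which it gave an adjusted p. All 3 Green libraries lay above all 4 Control libraries for 513 genes (4.9%) and below them for 446 (4.26%). For a single gene, an exact two-sided permutation test over 7 libraries cannot give a p below 0.0571, which every gene without overlap reaches. The differences between Green and Control described below therefore did not pass the edgeR test and are given as values. Where only an adjusted edgeR p is printed for this comparison, DESeq2 did not call the gene or, as for USP15, gave it no adjusted p.

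**Figure D1:**
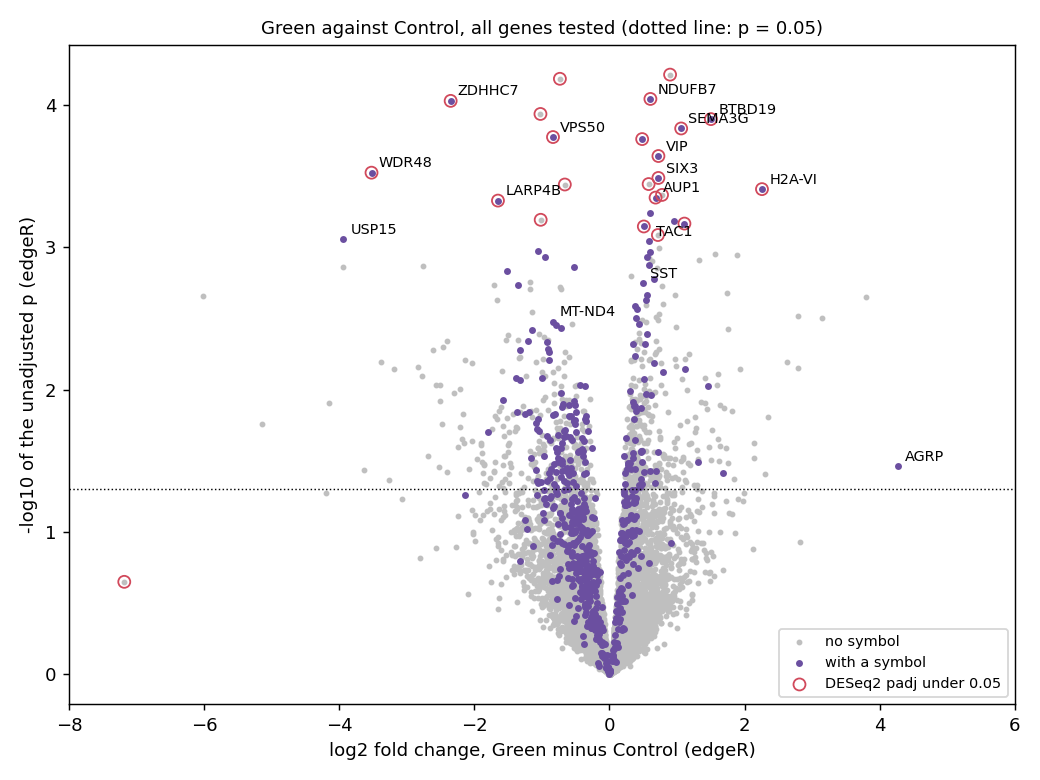
Log2 fold change of Green against Control (horizontal axis) and -log10 of the unadjusted edgeR p (vertical axis) for the 10475 genes tested, with the 568 genes that have a symbol in purple and the 23 DESeq2 calls ringed. Ringed genes cluster at the top on both sides, among them NDUFB7 and VIP on the right and ZDHHC7, VPS50 and WDR48 on the left, and the ringed point far left is a gene with counts in only 1 of the 7 libraries.

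The matched members of a list of releasing and inhibiting hormones and related peptides were at higher values in Green. Each had a symbol because the study listed it as changed in these libraries. Of 13 listed genes, 4 could be matched (SST, VIP, PACAP and UCN3) and the other members were not analysed here. The values therefore do not describe releasing hormones as a class, and the paper found no significant change of Ghrh or Trh in its RNA-seq. All 4 lay above every Control library, against 13.7% of genes with a symbol. All were also higher at an unadjusted edgeR p under 0.05, against 12.7% of those genes. Their median log2 fold change was 0.63, against -0.31 over genes with a symbol and -0.01 over all genes tested. The same median against Control was 0.42 in White and 0.65 in G3D. Since the matching itself depended on changes in these libraries, these shares do not test the list, and the same holds for every list below. VIP, which stimulates prolactin secretion in birds, was at 54.8, 103, 94.2 and 77.2 CPM in Control replicates 4, 5, 6 and 8 and at 138, 148 and 123 CPM in Green replicates 2, 7 and 9, the order used for all values that follow. The lowest Green value was thus above the highest Control value, with means of 82.4 ± 21.4 CPM (SD, n = 4) and 136 ± 12.5 CPM (SD, n = 3), a log2 fold change of 0.73 ± 0.16 (SE), an adjusted p of 0.239 by edgeR and 0.0251 by DESeq2. Leaving out a library in turn moved the VIP log2 fold change between 0.57 and 0.86.

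SST encodes somatostatin, which inhibits growth hormone release. It was at 616, 844, 749.9 and 620.4 CPM in Control and at 1007, 968 and 1010.3 CPM in Green. Green values lay within a narrow band above the Control range. The log2 fold change was 0.49 ± 0.14 (SE) with an adjusted p of 0.396 by edgeR and 0.182 by DESeq2. PACAP, the pituitary adenylate cyclase-activating peptide related to VIP, was at 92.9, 159.8, 131 and 122 CPM in Control and at 199, 176 and 171 CPM in Green. Its log2 fold change was 0.53 ± 0.17 (SE), with an adjusted p of 0.511 by edgeR and 0.283 by DESeq2. The paper, using DESeq2, reported VIP, SST and PACAP as raised in Green, and of these only VIP was called by DESeq2 here. It also counted more changed genes in each direction than DESeq2 called here. The run here used the genes of the edgeR fit, and the cause of the difference was not tested. Control replicate 4 was the lowest library for VIP, PACAP and SST, though for SST it was close to Control replicate 8. UCN3, a urocortin of the corticotropin-releasing factor family, was scarce, at 5.07, 2.68, 1.41 and 1.71 CPM in Control and 8.45, 7.78 and 6.83 CPM in Green, without overlap (log2 fold change 1.46 ± 0.51 (SE), adjusted edgeR p 0.575). For UCN3, replicate 4 was the highest Control library.

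The matched peptides linked to feeding were at higher mean values too, and they were likewise matched only through the study's listing of changed genes. Of 24 listed genes 3 were matched, TAC1, GAL and AGRP, all higher at an unadjusted edgeR p under 0.05 (12.7% of genes with a symbol), and 2 of the 3 above every Control library (13.7% of genes with a symbol). Their median log2 fold change against Control was 1.68 in Green, 1.48 in White and 2.01 in G3D. TAC1, the precursor of substance P, was at 146, 162, 141 and 123 CPM in Control and 206, 189 and 249 CPM in Green (log2 fold change 0.58 ± 0.15 (SE), adjusted edgeR p 0.360). GAL, which encodes galanin, was at 42.5, 42.1, 27.4 and 6.20 CPM in Control and 90.8, 104 and 91.2 CPM in Green. Every Green library had more than 2 times the GAL level of the highest Control library, and the log2 fold change was 1.68 ± 0.72 (SE) with an adjusted edgeR p of 0.664. GAL varied widely between libraries of a group, from 6.20 to 42.5 CPM in Control and from 14.1 to 154 CPM in White. AGRP, which encodes the appetite-stimulating agouti-related peptide, split the Green group: it was at 0, 3.00, 1.06 and 0.931 CPM in Control and at 0.505, 43.9 and 31.1 CPM in Green. Green replicate 2, from 4 counts, lay within the Control range while replicates 7 and 9 lay far above it, so the groups overlap (adjusted edgeR p 0.662, exact permutation p 0.229). White and G3D libraries were divided in the same way for AGRP, from 0 to 33.3 CPM in White and from 0.764 to 57.3 CPM in G3D.

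**Figure D2:**
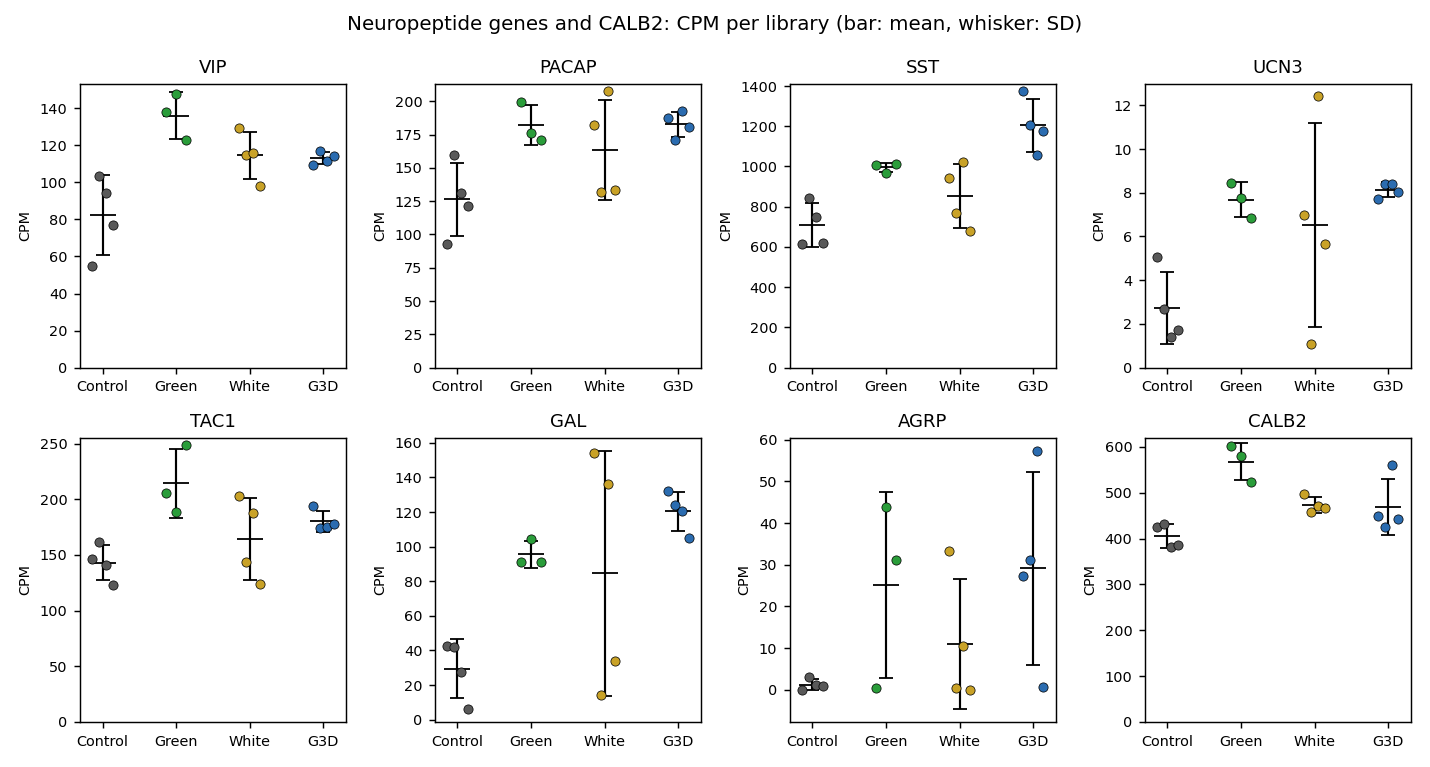
CPM (vertical axis, linear) of 7 neuropeptide genes and CALB2 in each library of the 4 groups, with points for libraries, bars for means and whiskers for SD. Green points lie above all Control points for every gene but AGRP, where 1 Green library is near 0 and the others are at 43.9 and 31.1 CPM.

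CALB2, which encodes the calcium-binding protein calretinin, was at 426, 431, 381 and 385 CPM in Control and 601, 579.5 and 523 CPM in Green, a log2 fold change of 0.48 ± 0.11 (SE) with an adjusted p of 0.202 by edgeR and 0.0164 by DESeq2. Of 6 matched genes of the CREB and calcium kinase list, 2 (CALB2 and NCALD, a neuronal calcium sensor) were higher at an unadjusted edgeR p under 0.05 and none lower, against 12.7% and 19.5% of genes with a symbol. Only CALB2 of the 6 lay above every Control library, a share near the 13.7% of genes with a symbol. CAMK2A, a calcium/calmodulin-dependent kinase subunit, and HPCAL1, another calcium sensor, had log2 fold changes of 0.42 ± 0.30 (SE) and 0.23 ± 0.12 (SE) with overlapping groups. SIX3, a homeodomain factor of the developing forebrain and hypothalamus, was at 111, 139.6, 129 and 129 CPM in Control and 193, 205 and 233 CPM in Green. The Green libraries all exceeded Control (log2 fold change 0.72 ± 0.17 (SE), adjusted p 0.271 by edgeR and 0.0390 by DESeq2). SIX3 also marks the tissue itself. Like the peptides, it was matched through the study's listing of changed genes, so the direction it shares with them does not test a common source. The 1 matched telencephalon marker had a log2 fold change of 0.37 with overlap. The part of dissection in the peptide values was not tested. GAP43, a growth cone protein, was at 714 ± 61.0 CPM (SD, n = 4) in Control and 936 ± 64.5 CPM (SD, n = 3) in Green without overlap, whereas GAD67, which makes the transmitter GABA, lay below every Control library, at 82.3 ± 9.38 CPM (SD, n = 3) against 119.5 ± 16.9 CPM (SD, n = 4).

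Of the matched genes of protein folding in the endoplasmic reticulum (ER), most were at higher values in Green. They too were matched only through the study's listing of changed genes, so their shares do not test the list. Of 6 matched members 4 (MANF, AUP1, HYOU1 and HSP90B1) were higher at an unadjusted edgeR p under 0.05 and none lower, against 12.7% and 19.5% of genes with a symbol, and the median log2 fold change was 0.40 against -0.31 over those genes. MANF, a secreted factor made under ER stress, was at 163, 183, 195 and 189 CPM in Control and 250.3, 302 and 273 CPM in Green (log2 fold change 0.60 ± 0.15 (SE), adjusted edgeR p 0.317). AUP1, which serves ER-associated degradation and lipid droplets, was at 27.3, 20.1, 23.5 and 26.7 CPM in Control and 41.3, 36.0 and 40.1 CPM in Green, and was called by DESeq2 (adjusted p 0.0228) but not by edgeR (adjusted p 0.273). Neither gene overlapped between the groups. HYOU1, an ER chaperone, did not overlap either (log2 fold change 0.35 ± 0.13 (SE)). HSP90B1, the ER form of the chaperone HSP90, was at 405, 609 and 309.6 CPM in Green against 331, 328, 309.9 and 311 CPM in Control, so its mean rested on Green replicate 7, and without a library its log2 fold change ranged between 0.16 and 0.66. JMJD8, a protein of the ER lumen outside the list, was at 59.1, 63.7, 64.8 and 57.1 CPM in Control and 80.1, 86.7 and 94.4 CPM in Green (adjusted p 0.325 by edgeR and 0.0390 by DESeq2).

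NDUFB7, a nuclear-encoded subunit of respiratory complex I, had the smallest edgeR p of the genes with a symbol (9.06e-05) and was at 249, 226, 224 and 212 CPM in Control and 352, 309.8 and 378 CPM in Green, a log2 fold change of 0.61 ± 0.12 (SE) with an adjusted p of 0.202 by edgeR and 0.0117 by DESeq2. SDHA, the other matched nuclear gene of the chain, was at 218 CPM in Control and 171 CPM in Green with overlap. All 4 matched complex I genes of the mitochondrial genome had lower means in Green, 3 of them (ND1, MT-ND2 and MT-ND4) below every Control library and at an unadjusted edgeR p under 0.05, against 15.7% and 19.5% of genes with a symbol. MT-ND4 was at 1836, 1593, 1215 and 1826 CPM in Control and 912, 946 and 852 CPM in Green (log2 fold change -0.84 ± 0.24 (SE), adjusted edgeR p 0.473). ND1 was at 3876, 3242, 2129 and 2711 CPM in Control and 1973, 2071 and 2073 CPM in Green. The sum over the 4 genes ran from 3649 to 6087 CPM in Control, with replicate 4 highest, and from 3111 to 3264 CPM in Green. The median log2 fold change of the 4 was -0.68 against -0.31 over genes with a symbol, and -0.47 without Control replicate 4. As the 4 were matched through the same listing, these values do not test the list. Mitochondrial transcripts also follow RNA quality, whose part in the difference was not tested.

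Several further genes were higher in Green without overlap. BTBD19 was at 6.25, 8.26, 3.89 and 8.53 CPM in Control and 23.5, 17.2 and 16.9 CPM in Green (log2 fold change 1.50 ± 0.32 (SE), adjusted p 0.202 by edgeR and 0.00708 by DESeq2), while White was at 17.8 ± 7.05 CPM (SD, n = 4) and G3D at 17.6 ± 4.72 CPM (SD, n = 4), so the Control mean was the lowest of the 4 groups. SEMA3G, a secreted semaphorin, was at 19.5, 14.8, 12.7 and 10.2 CPM in Control and 27.0, 31.5 and 31.8 CPM in Green (log2 fold change 1.06 ± 0.23 (SE), adjusted p 0.202 by edgeR and 0.0103 by DESeq2). H2A-VI, a histone H2A gene, was at 2.91, 3.00, 4.42 and 2.64 CPM in Control and 18.9, 14.9 and 12.5 CPM in Green, the largest log2 fold change (2.26 ± 0.52 (SE)) among the 10 DESeq2 calls with a symbol that were higher. Histone H2A genes have near-identical copies, so the share of reads that belongs to H2A-VI is uncertain. The 2 matched ciliary genes of the ependyma and choroid plexus list, CFAP45 and FHAD1, summed to 22.6 to 24.3 CPM in Control and 39.6 to 53.1 CPM in Green, and the part of ventricular lining in the sampled tissue was not tested. CCDC134, COMMD4 and MARCH11, a ubiquitin ligase, complete the 15 higher genes named by the smallest p, with log2 fold changes of 0.60, 0.55 and 1.11. Of these, DESeq2 called MARCH11 (adjusted p 0.0451).

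Several genes with the smallest p among those lower in Green had few counts. ZDHHC7, a palmitoyltransferase, was at 3.56, 4.18, 6.36 and 15.8 CPM in Control and 1.26, 1.53 and 1.54 CPM in Green. The Green libraries held only 9 to 11 counts each, and Control replicate 8 lay far above the other Control libraries. Its log2 fold change was -2.35 ± 0.48 (SE) (adjusted p 0.202 by edgeR, 0.00507 by DESeq2) and lay between -2.59 and -1.68 when a library was left out. WDR48, a cofactor of deubiquitinating enzymes, had 80, 44, 22 and 32 counts in Control and 5, 4 and 1 counts in Green. These correspond to means of 5.55 ± 2.10 CPM (SD, n = 4) and 0.452 ± 0.247 CPM (SD, n = 3) and a log2 fold change of -3.52 ± 0.80 (SE), with an adjusted p of 0.271 by edgeR and 0.00507 by DESeq2. USP15, a deubiquitinating enzyme, had 16, 11, 8 and 17 counts in Control and 0, 2 and 0 in Green, too few for a fold change to be given (adjusted edgeR p 0.360). LARP4B, an RNA-binding protein, was at 10.5, 4.61, 8.66 and 7.45 CPM in Control and 2.65, 1.39 and 3.41 CPM in Green (log2 fold change -1.65 ± 0.40 (SE), adjusted p 0.273 by edgeR and 0.0264 by DESeq2).

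Genes of vesicle coats, endosomes and lysosomes had a median log2 fold change of -0.56 over 15 matched members, against -0.31 over genes with a symbol. Of these 6 were lower and 1 higher at an unadjusted edgeR p under 0.05, against 19.5% of genes with a symbol lower and 12.7% higher. With members matched only through the study's listing of changed genes, the shares and the median do not test the list. VPS50, a tethering factor for endosomal recycling, was at 31.9, 32.4, 24.9 and 31.3 CPM in Control and 16.7, 16.8 and 17.2 CPM in Green. The Green libraries differed by under 1 CPM and all lay below Control (log2 fold change -0.84 ± 0.18 (SE), adjusted p 0.202 by edgeR and 0.00521 by DESeq2). OSBPL2, an oxysterol-binding protein, was at 20.3, 16.9, 18.7 and 22.5 CPM in Control and 9.71, 11.7 and 6.83 CPM in Green (log2 fold change -1.05 ± 0.28 (SE), adjusted edgeR p 0.360). ATP6V1A, the catalytic subunit of the vacuolar proton pump, and IGF2R, a receptor that carries lysosomal enzymes, also lay below Control. Their log2 fold changes were -0.72 ± 0.25 (SE) and -0.49 ± 0.18 (SE). IGF2R was nearly constant in Control, at 31.2, 31.3, 31.3 and 30.7 CPM, and at 24.0, 23.6 and 18.6 CPM in Green. COPB2, a coatomer subunit, and LEPROT, which limits leptin and growth hormone receptor at the cell surface, overlapped between the groups (log2 fold changes -0.83 ± 0.31 (SE) and -0.71 ± 0.33 (SE)). RAB24, a small GTPase, was the member at higher values (log2 fold change 0.35 ± 0.11 (SE)).

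**Figure D3:**
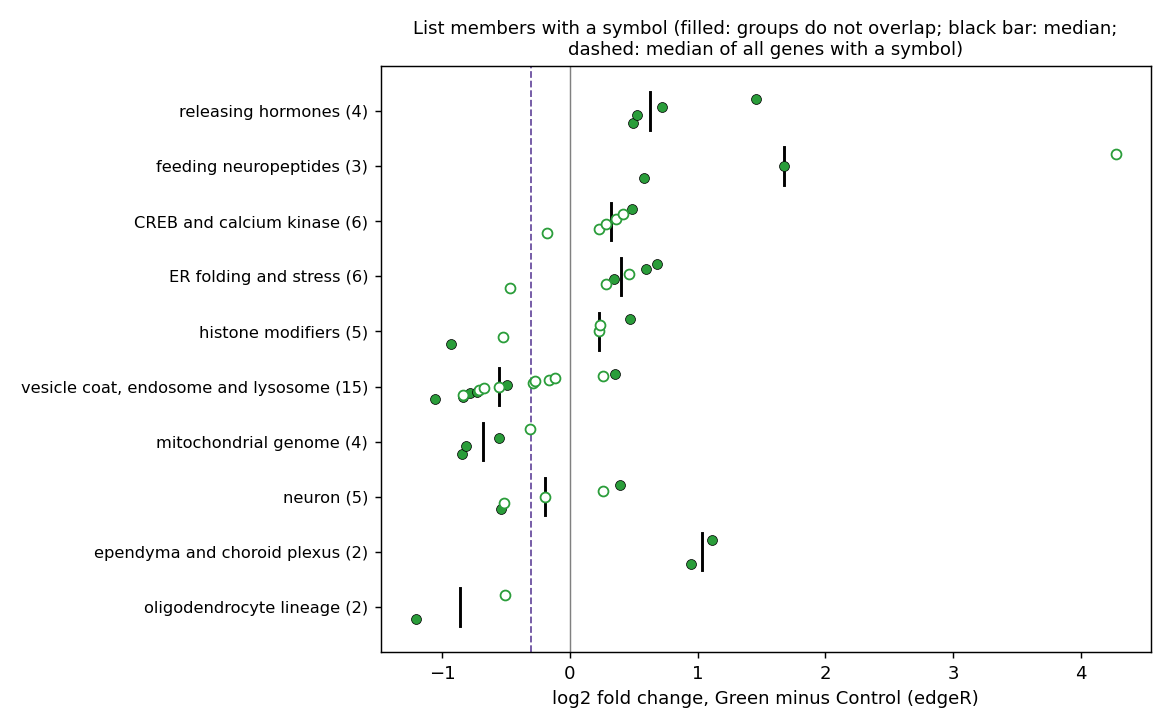
Log2 fold change of Green against Control (horizontal axis) for the matched members of 10 gene lists, with the number matched in brackets, filled points where the groups do not overlap, black bars at the list medians and a dashed line at the median of the 568 genes with a symbol. The list labelled releasing hormones (SST, VIP, PACAP and UCN3) and the feeding neuropeptides lie wholly right of 0. The mitochondrial genome lies wholly left, while neuron markers lie on both sides.

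XPOT, which exports transfer RNA from the nucleus, was at 19.8, 11.4, 11.7 and 12.9 CPM in Control and 7.44, 6.95 and 7.17 CPM in Green (log2 fold change -0.96 ± 0.25 (SE), adjusted edgeR p 0.360). EPHA7, an ephrin receptor, was at 6.04, 6.33, 4.95 and 5.12 CPM in Control and 2.14, 2.22 and 2.22 CPM in Green, below Control by a log2 fold change of -1.35 ± 0.38 (SE) (adjusted edgeR p 0.396). SLC37A4, the glucose 6-phosphate transporter of the ER, was at 53.8, 56.7, 53.5 and 54.3 CPM in Control and 41.1, 37.5 and 35.7 CPM in Green. The 7 libraries of SLC37A4 formed a pair of tight groups (log2 fold change -0.52 ± 0.14 (SE), adjusted edgeR p 0.360). IFNAR1, a type I interferon receptor chain, MSMO1, an enzyme of cholesterol synthesis, PSMG1, a proteasome assembly chaperone, and LIMA1, an actin-binding protein, lay below Control with log2 fold changes of -1.52, -0.71, -0.79 and -1.15. CDH19, a glial cadherin, was at 16.8, 19.4, 17.1 and 16.3 CPM in Control and 10.2, 7.50 and 4.78 CPM in Green, while UGT8, the other matched oligodendrocyte gene, was at 610.1 CPM and 429 CPM on average with overlap. The oligodendrocyte sum ran from 295 to 1002 CPM in Control and from 268 to 564 CPM in Green, and its part in the lower genes was not tested.

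**Figure D4:**
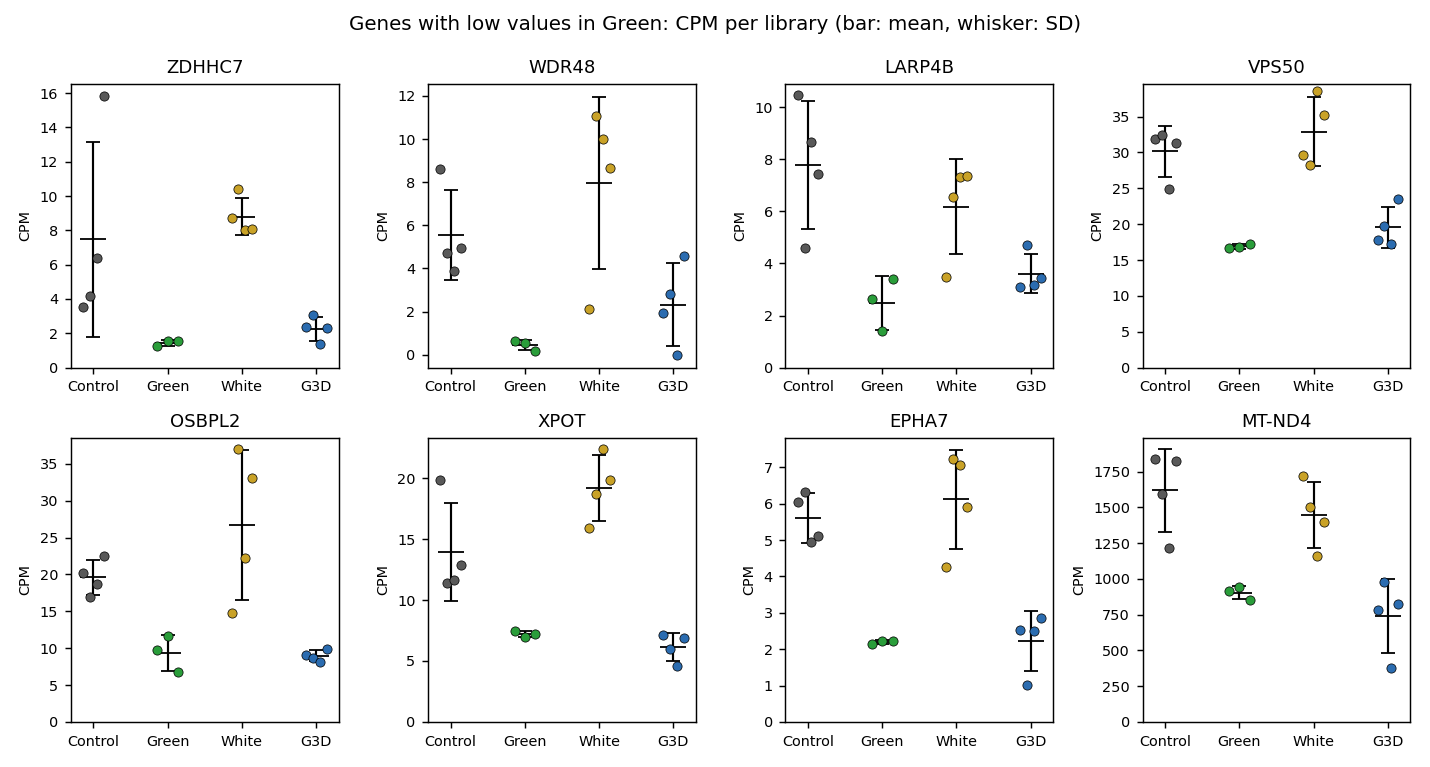
CPM (vertical axis, linear) of 8 genes at lower values in Green, in each library of the 4 groups, with points for libraries, bars for means and whiskers for SD. The 3 Green points lie below all 4 Control points in each panel, and ZDHHC7 has a Control library at 15.8 CPM that sets its Control mean.

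Of 5 matched histone and DNA modifiers, DNMT3A, a DNA methyltransferase, was higher (450.0 ± 89.4 CPM (SD, n = 4) in Control, 625 ± 35.9 CPM (SD, n = 3) in Green) and HDAC11, a histone deacetylase, lower (53.4 ± 9.63 CPM (SD, n = 4) and 28.0 ± 11.2 CPM (SD, n = 3)) at an unadjusted edgeR p under 0.05, both without overlap. These shares are near the 12.7% higher and 19.5% lower among genes with a symbol. Their log2 fold changes were 0.47 ± 0.17 (SE) and -0.93 ± 0.29 (SE), with adjusted edgeR p of 0.609 and 0.511. NFKBIB, an inhibitor of NF-kappa-B, was at 18.0, 17.1, 11.5 and 15.2 CPM in Control and 28.3, 20.8 and 22.4 CPM in Green (log2 fold change 0.62 ± 0.22 (SE), adjusted edgeR p 0.607). IGFBP5, ADAM10, LAMP2 and APMAP, which the study's text names as changed in G3D only, overlapped between Green and Control (log2 fold changes 0.33, -0.87, -0.27 and -0.32). Of the other genes that the text names so, AGRP, LEPROT, CAMK2A and HPCAL1 overlapped too. GAL, NFKBIB and IGF2R did not overlap, with GAL and NFKBIB above every Control library and IGF2R below.

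The genes at higher values in Green had a median Control level of 33.2 CPM and those at lower values 14.1 CPM, with median log2 fold changes of 0.52 and -0.82, over the 375 genes in each direction at an unadjusted edgeR p under 0.05. With genes ranked by Control mean into 5 bins of 2095, 8.02% lay above all Control libraries and 3.01% below in the highest bin, whereas 3.15% lay above and 5.35% below in the next to lowest bin. The lowest bin was near balance, with 3.44% above and 3.29% below, so the shares did not follow the level throughout. The median log2 fold change over all 10475 genes was -0.01.

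**Figure D5:**
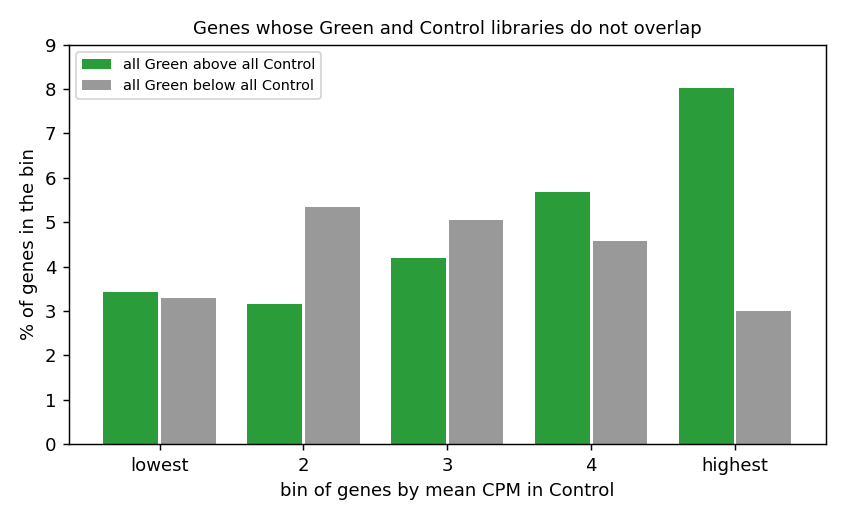
Share of genes (vertical axis, %) whose 3 Green libraries all lie above (green) or all below (grey) the 4 Control libraries, by bin of mean Control CPM (horizontal axis, lowest to highest, 2095 genes in each of 5 bins). The green bar climbs to 8.02% in the highest bin, where the grey bar is at 3.01%.

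Green was then compared with White, the other group lit throughout incubation, where the colour of the light and the place in the incubator cannot be told apart. edgeR called 5 genes higher in Green (0.0477%) and 18 lower (0.172%) at an adjusted p under 0.05, and at an unadjusted p under 0.05 the shares were 6.97% higher and 7.08% lower. DESeq2 called 79 higher (0.893%) and 122 lower (1.38%) of the 8846 genes to which it gave an adjusted p, the 23 edgeR calls among them. None of the 5 has a symbol, and 8 of the 18 do: OSBPL2, SLC25A36, WDR48, VPS50, XPOT, PCDH9, PDP1 and ZDHHC7. XPOT was at 15.9, 18.7, 22.4 and 19.9 CPM in White and 7.44, 6.95 and 7.17 CPM in Green (log2 fold change -1.42 ± 0.26 (SE), adjusted edgeR p 0.0278). VPS50 was at 29.7, 28.3, 38.5 and 35.2 CPM in White and 16.7, 16.8 and 17.2 CPM in Green (log2 fold change -0.96 ± 0.18 (SE), adjusted edgeR p 0.0295). ZDHHC7, OSBPL2 and WDR48 were lower in Green than in White too, with log2 fold changes of -2.60 ± 0.49 (SE), -1.51 ± 0.28 (SE) and -4.04 ± 0.80 (SE). PDP1, a phosphatase that activates pyruvate dehydrogenase, SLC25A36, a mitochondrial nucleotide carrier, and PCDH9, a protocadherin, had log2 fold changes of -1.55, -1.49 and -2.33. All 8 genes had a White mean above the Control mean, with log2 fold changes of White against Control from 0.12 (VPS50) to 0.95 (PCDH9). PDP1 overlapped between Green and Control. Of the 18, 14 lay below every Control library and every White library. Over all genes tested 4.26% lay below every Control library. The 18 were selected for low values in the same Green libraries, so the 14 are not a separate result. None of the 7 matched neuropeptides was called, and the log2 fold change of Green against White was 0.25 ± 0.16 (SE) for VIP, 0.22 ± 0.14 (SE) for SST and 0.16 ± 0.17 (SE) for PACAP, with adjusted edgeR p of 0.498, 0.478 and 0.697. These calls depend on single libraries, since leaving out Green replicate 2, Green replicate 9, White replicate 3 or White replicate 7 left 1 lower call.

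Green and G3D differ in the length of exposure to the same light and in the place in the incubator, which cannot be told apart. The labels give no sex for G3D, while the paper's legend for these profiles calls the chicks male. edgeR called 0 genes between them at an adjusted p under 0.05 (0%, smallest adjusted p 0.640), with 179 higher (1.71%) and 208 lower (1.99%) in G3D at an unadjusted p under 0.05, and DESeq2 called 2. The difference G3D minus Green was -0.27 ± 0.16 (SE) for VIP, 0.28 ± 0.14 (SE) for SST, 0.34 ± 0.71 (SE) for GAL and 0.68 ± 0.50 (SE) for ZDHHC7 on the log2 scale. The 375 genes in each direction were chosen on their difference between Green and Control, and Green, G3D and White share the Control libraries, so their medians against Control are given side by side as a description only. The genes higher in Green had a median log2 fold change of 0.52 in Green, 0.38 in G3D and 0.08 in White. The lower genes had medians of -0.82 in Green, -0.67 in G3D and -0.00 in White.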

How the data were processed

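The values analysed are counts of reads per Ensembl gene, which the authors deposited without normalization as whole numbers. Per the paper's methods and the labels, the authors trimmed reads with Cutadapt, mapped them with STAR to 3′ UTR regions of GRCg6a, marked duplicates by gene and molecular identifier, and counted with HTSeq; whether duplicates were left out of the counts, and how strand was treated, is not given in the sources used here. The tests measure the spread between chicks, each with 1 library.

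In R 4.3.3, edgeR 4.0.16 (TMM scaling, filterByExpr, quasi-likelihood test) was fitted on all 15 libraries for 10475 of 24356 genes, 17647 of which had a count, with Benjamini-Hochberg adjustment at 0.05. DESeq2 1.42.0, limma 3.58.1, other scalings and filters, the Green and Control libraries alone, the replicate block and each left-out library were alternatives. The DESeq2 run used the genes of the edgeR fit. The code was tested on simulated data.

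The 67 named genes are, per direction, the 15 with a symbol, no overlap and the smallest p, and every DESeq2 call with or without a symbol. They also include 14 genes the study names, and list members with an unadjusted p under 0.05. For some DESeq2 calls without a symbol, such as ENSGALG00000002784, no values are printed. Symbols came from the study's gene table, for 568 identifiers, and 62 of 637 listed symbols were matched. Members and the 28 lists were chosen with earlier results of these data known. Green and Control share no replicate number. Over the 8 pairs of libraries from different groups with the same number, the deviations correlated from -0.0965 to 0.120.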

Additional observations from a re-analysis of the deposited data

Results flagged for a closer look

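Of the 67 named genes, 9 also differed between Green and White, by an edgeR test of that difference at an adjusted p under 0.05. Over all 10475 genes tested, 0.0477% were called higher in Green than in White and 0.172% lower. Many named genes were chosen for their values in the same Green libraries, so the 9 are not a separate result. On the log2 scale Green minus White was -1.51 for OSBPL2, -4.04 for WDR48, -0.96 for VPS50, -1.42 for XPOT and -2.60 for ZDHHC7. It was -1.18, -0.92 and -0.79 in 3 genes for which no symbol was matched, and 1.38 in another, ENSGALG00000053766.

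In 4 of the 67 named genes, 1 Control library lay far from the other Control libraries by Dixon's test, which flags about 1 in 20 groups by chance. VPS50 was at 24.9 CPM in Control replicate 6 and CCDC134 at 54.4 CPM in Control replicate 4. MARCH11 was at 6.89 CPM in Control replicate 6. ENSGALG00000029966 was at 11.2 CPM in Control replicate 8, from 72 counts, and had 0 counts in the other 6 libraries of the comparison, although DESeq2 called it lower in Green.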

How the results depend on the processing

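The absence of edgeR calls between Green and Control held under limma-voom, DESeq2 size factors, upper-quartile scaling, a minimum of 10 counts in every library and a fit without robust shrinkage. DESeq2 called 14 higher and 9 lower. With all genes of at least 1 count, 2 were higher (BTBD19 and ENSGALG00000053766) and 1 lower (ZDHHC7), and with only the Green and Control libraries 1 was higher (H2A-VI). Leaving out a replicate gave 0 higher and 0 to 1 lower, the 1 being ENSGALG00000004096 without Green replicate 7. At an unadjusted p under 0.05 the counts ran from 261 to 423 higher and from 250 to 507 lower when a replicate was left out. In the fit with the replicate block they were 196 higher and 164 lower, with 0 at an adjusted p under 0.05, and IGFBP5 (-0.27), HPCAL1 (-0.049) and ENSGALG00000029966 (3.88) changed sign. Since Green and Control share no number, the block links them only through White and G3D libraries that share a number with them.

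For Green against White, DESeq2 called 79 higher and 122 lower, DESeq2 size factors in edgeR 3 higher, all genes with a count 27 higher and 40 lower, and the replicate block 3 higher and 0 lower. Leaving out a replicate gave 1 to 12 higher and 1 to 29 lower. For G3D against Green, DESeq2 called 1 higher and 1 lower, and leaving out a replicate gave 0 to 1 lower. The White and G3D replicates were left out as a choice made after seeing the data. The cause of these differences was not tested. The levels of WDR48 and USP15 in Green rest on 5 counts or fewer in each library.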

Other observations

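Few genes of light sensing could be matched. PDE6G, the inhibitory subunit of the phototransduction phosphodiesterase, was the single match of 43 listed, with a mean of 11.4 CPM in Control and 15.2 CPM in Green, all Green libraries above Control, and a log2 fold change of 0.41 (unadjusted edgeR p 0.135). CRYM, a thyroid hormone-binding protein, was at 124 CPM and 141 CPM with overlap. No gene of the circadian clock, of activity-induced transcription or of the peptide receptors on the lists was matched, and these were not analysed here.

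VIM, an intermediate filament gene of radial glia, tanycytes and vessels, was at a mean of 170.4 CPM in Control and 215 CPM in Green without overlap (log2 fold change 0.33). COL1A2, a collagen gene of meninges and vessel walls, was at 33.1 CPM and 46.3 CPM with overlap (log2 fold change 0.48). NCOA4, the receptor for ferritin breakdown, lay below every Control library, at 20.8 CPM against 35.8 CPM (log2 fold change -0.78, unadjusted edgeR p 0.0542), and LAMP1, a lysosomal membrane protein, was at 61.7 CPM against 98.1 CPM with overlap.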
